A study of Mus musculus with 16 samples.

Results

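Among 16 LA-N-1 xenograft tumors on the arrays, 8 with abundant transcripts of host stroma were compared, 4 from mice given cinacalcet and 4 from mice given vehicle. The tumors were chosen by measured values. A host score was taken for each tumor as the mean log2 signal of 10 genes, Col1a1, Col1a2, Col3a1 and Dcn of fibroblasts, Cd68 and Csf1r of macrophages, Cdh5 and Pecam1 of endothelium, and Acta2 and Rgs5 of mural cells, and the 4 highest tumors of each arm were kept. LA-N-1 is a human neuroblastoma line with MYCN amplification that expresses the calcium-sensing receptor (CaSR), and cinacalcet is an oral drug that activates this receptor allosterically. Cells were injected under the skin of young female athymic Nude-Foxn1 nu/nu mice, and both arms carried the same line in the same strain. Drug or vehicle was given by oral gavage until the tumor reached a fixed volume, so the length of treatment was not assigned. The last 8 tumors excised in each arm were hybridized to the Mouse Gene 2.1 ST array, whose probes are meant for the mouse host and not for the human tumor cells. No array of human cells alone was used here, so binding of human transcripts to these probes was not tested.

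Tumor stroma consists of host fibroblasts that deposit collagen, endothelial cells that line vessels, mural cells that wrap them, and immune cells among which macrophages are usually abundant. Athymic mice lack a thymus and so are short of mature T cells, while their B cells, macrophages and neutrophils develop. Vessel growth draws on Notch ligands and receptors, on semaphorins with their neuropilin and plexin receptors, and on vascular growth factors.

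Cinacalcet tumor 6, which the methods excluded as an outlier, had a host score of 8.29 and was left out. Had it been included, it would have replaced cinacalcet tumor 11. Among the remaining cinacalcet tumors the score was 8.09 in tumor 4, 8.03 in tumor 7, 8.22 in tumor 10 and 7.73 in tumor 11. In vehicle tumors it was 8.32 in tumor 6, 8.02 in tumor 8, 8.00 in tumor 9 and 7.91 in tumor 12. The 2 arms therefore overlapped on the score, with means of 8.02 ± 0.21 in cinacalcet tumors and 8.06 ± 0.18 in vehicle tumors (SD, n = 4 each). The first tumors outside the choice were cinacalcet tumor 9 at 7.60, close below cinacalcet tumor 11, and vehicle tumor 10 at 7.21. Tumor 9 was not low in every cell class. Its fibroblast and macrophage genes averaged 8.48 and 7.67, against 7.70 and 6.54 in cinacalcet tumor 11. Its endothelial and mural genes averaged 6.42 and 6.94, against 7.78 and 8.93. The other 3 cinacalcet tumors averaged 7.18 ± 0.59 and the other 4 vehicle tumors 6.65 ± 0.74 (SD).

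The arms were alike in the sum of the score and less so in its parts. The mural pair averaged 8.92 with cinacalcet and 8.46 with vehicle, and Rgs5, a gene of pericytes, averaged 9.05 and 8.35. The fibroblast genes averaged 8.44 with cinacalcet and 8.72 with vehicle, the macrophage pair 6.84 and 7.08, and the endothelial pair 7.44 and 7.32. Of the genes outside the score, some lists lay higher in host-rich tumors and others did not. The mean of 23 further fibroblast genes was between 5.23 and 5.97 in host-rich cinacalcet tumors and between 5.68 and 6.22 in host-rich vehicle tumors, against 4.69 to 5.51 in the other cinacalcet tumors and 3.84 to 5.25 in the other vehicle tumors. Neutrophil genes averaged 1.93 in host-rich cinacalcet tumors, against 2.52 in the other cinacalcet tumors, which ranged from 1.90 to 3.62. In vehicle tumors they averaged 2.15 in host-rich tumors and 1.95 in the others. Skeletal muscle genes averaged 1.77 in host-rich vehicle tumors, against 2.36 in the other vehicle tumors, and 2.40 against 2.37 with cinacalcet. Genes of epidermis and hair follicle averaged 1.49 against 1.94 with vehicle, and 1.90 against 2.06 with cinacalcet. Since the score chose the tumors, these levels describe the choice. They cannot tell more host cells from more RNA per host cell, a limit of bulk RNA that holds for every comparison here. Of the 4 host-rich cinacalcet tumors, tumors 10 and 11 were among the 3 that the methods name as longest treated.

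**Figure D1:**
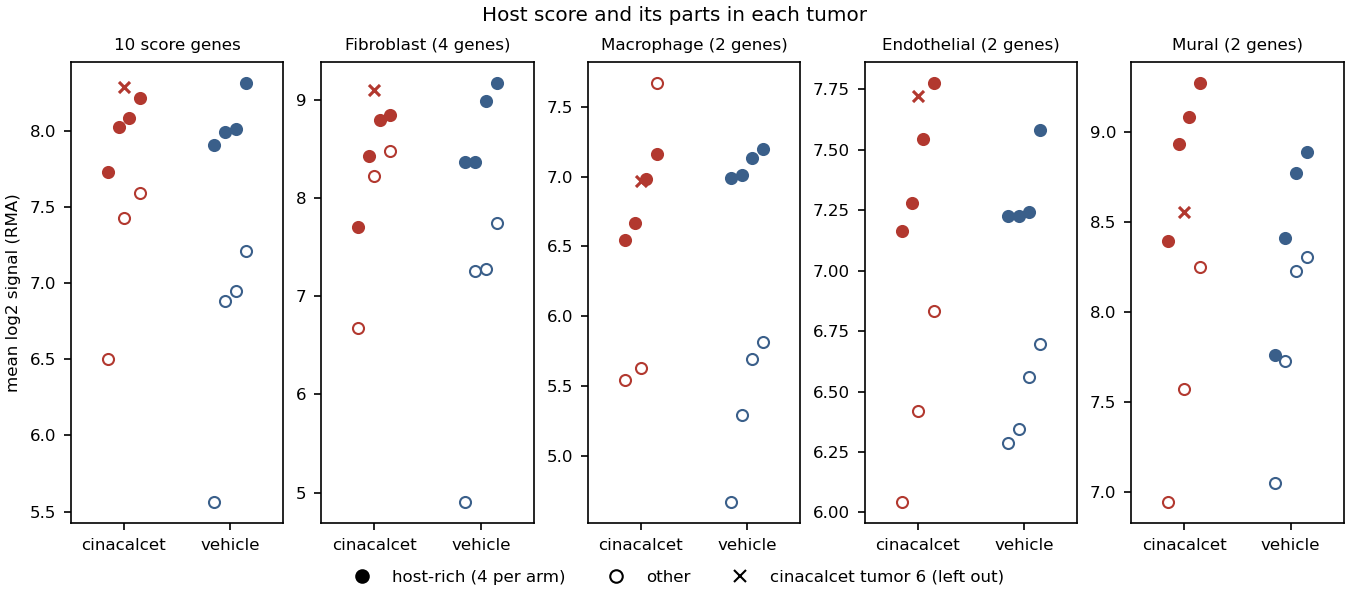
Mean log2 signal (RMA) of the 10 score genes and of each cell class in the 16 tumors, cinacalcet left of vehicle; filled points are the host-rich tumors, open points the others, and the cross is cinacalcet tumor 6. Host-rich tumors of both arms lie between 7.73 and 8.32 on the score, and the mural genes are the class whose cinacalcet mean is farthest above the vehicle mean.

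The question was whether the host cells of a tumor expressed other genes at other levels with cinacalcet once the tumors of lower host score were set aside. No probe set passed. The methods' filter, which drops the 50% of probe sets of lowest mean signal and then the 50% of lowest variability, left 10123 probe sets outside the score, and at an adjusted p under 0.05 from limma 0 were called (0%; smallest adjusted p 0.628). Before adjustment, 71 probe sets (0.701%) had a p of 0.01 or less, 33 higher and 38 lower with cinacalcet, where 1% of 10123 would be 101.2. At an unadjusted p under 0.05 there were 431 (4.26%). The lowest and highest tumors of the arms did not overlap for 291 probe sets (2.87%), of which 96 were higher and 195 lower with cinacalcet. Only 10 of the 71 name a single gene, 6 name several, and 55 are unnamed here. The genes of smallest p are given with their values and with no claim that cinacalcet altered them. With 4 tumors in each arm, a p that misses the threshold does not show that a gene did not differ.

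The spread between tumors of an arm was smaller among host-rich tumors. The choice limits the range of the host score, so part of this follows from the rule itself. The median SD within an arm was 0.440 log2 units over the probe sets kept, against 0.560 in the other tumors and 0.573 in all 15. Pairs of host-rich arrays correlated at a median of 0.886 over probe sets, against 0.813 among the other tumors. By arm, the median was 0.879 between cinacalcet tumors, 0.895 between vehicle tumors and 0.890 between a cinacalcet and a vehicle tumor. A cinacalcet tumor was thus about as like a vehicle tumor as like another cinacalcet tumor. The probe sets of one array are not independent, and these correlations are descriptions.

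In the higher direction, 8 of the 12 genes of smallest p did not overlap between the arms. A choice by p favors such genes, which were 2.87% of all probe sets kept. Of the 8, the left-out cinacalcet tumor 6 stood above every host-rich vehicle tumor for Bcl6b, Cmya5 and Jcad. It did not for Gm14403, Clpb, Mir365-1, Zdhhc13 and Enpep. Bcl6b, on chromosome 11, encodes a transcriptional repressor related to BCL6 that is expressed in endothelium. Its log2 signal was 3.70, 4.25, 3.93 and 4.21 in cinacalcet tumors 4, 7, 10 and 11, against 3.24, 3.30, 2.66 and 3.33 in vehicle tumors 6, 8, 9 and 12. Every cinacalcet tumor lay above every vehicle tumor. The log2 fold change was 0.89 (standard error 0.24, 95% interval 0.35 to 1.43, adjusted p = 0.983 from limma), and the exact permutation test gave p = 0.0286, the smallest that 4 tumors against 4 allow. Any gene without overlap gets that value, and Bcl6b was picked by its p in these same tumors, so the permutation test adds no support.

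Mgp, matrix Gla protein, is secreted by vascular smooth muscle and other matrix-producing cells and inhibits calcification of vessels. Its signal was 8.06, 8.88, 7.82 and 8.38 in cinacalcet tumors 4, 7, 10 and 11, against 8.13, 7.15, 7.09 and 6.54 in vehicle tumors 6, 8, 9 and 12. Vehicle tumor 6 lay inside the cinacalcet range and the other 3 below it, and the log2 fold change was 1.06 (standard error 0.37, adjusted p = 0.983 from limma). Enpep, the aminopeptidase of pericytes that cleaves angiotensin II, was between 3.28 and 3.46 with cinacalcet and between 2.45 and 3.09 with vehicle, a log2 fold change of 0.58. Jcad, a protein of endothelial junctions, was between 4.32 and 4.94 with cinacalcet and between 3.82 and 4.12 with vehicle, a log2 fold change of 0.58. Neither gene overlapped between the arms, and both had an adjusted p of 0.983 from limma. These genes were named for their p and not tested as a group, and the lists of endothelial and mural genes are described apart. The mural pair of the score stood higher with cinacalcet in the same tumors (above), and its part in these differences was not tested.

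Gdpd3, a lysophospholipase D, had the largest log2 fold change of the 12, 1.58 (0.52 standard error, with 0.983 as limma's adjusted p). Its signal was 4.68, 4.64, 5.34 and 4.43 in cinacalcet tumors 4, 7, 10 and 11, against 2.77, 2.55, 4.94 and 2.49 in vehicle tumors 6, 8, 9 and 12. Vehicle tumor 9 alone reached the cinacalcet range, and without it the log2 fold change was 2.17 (adjusted p = 0.339 from limma). Clpb, a mitochondrial chaperone that dissolves protein aggregates, had a log2 fold change of 0.82, and Zdhhc13, a palmitoyltransferase, one of 0.58. Neither overlapped between the arms. The predicted gene Gm14403 had a log2 fold change of 1.19 without overlap, and F830016B08Rik one of 1.08 with overlap. With vehicle the signals of Clpb (1.57 to 2.07) and Gm14403 (0.92 to 2.06) were low. The array medians of those tumors were 1.59 to 1.64. Cmya5, a large protein of striated muscle, was between 1.96 and 2.70 with cinacalcet and between 1.42 and 1.70 with vehicle, again near the array medians. In the other vehicle tumors it was between 1.97 and 2.61. A list of skeletal muscle genes averaged 1.91, 3.30 and 2.57 in cinacalcet tumors 4, 7 and 10, and at most 1.86 in host-rich vehicle tumors. The other vehicle tumors reached 3.29 on that list.

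Among these 12 were 2 microRNA genes. The probe sets name the gene of the hairpin, and the mature strands were not measured. The mature sequences, from RefSeq (GRCm38.p6), are shown because the seed, bases 2 to 8 in capitals, is the part by which a miRNA pairs with its targets. The 4 seeds differ from each other.
mmu-miR-139-5p (chr7:101475382-101475403, plus strand): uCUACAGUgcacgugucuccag
mmu-miR-139-3p (chr7:101475418-101475439, plus strand): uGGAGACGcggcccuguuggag
mmu-miR-365-1-5p (chr16:13453855-13453877, plus strand): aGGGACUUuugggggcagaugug
mmu-miR-365-3p (chr16:13453895-13453916, plus strand): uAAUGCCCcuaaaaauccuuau

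The signal of Mir139 was 3.18, 4.21, 4.13 and 4.04 in cinacalcet tumors 4, 7, 10 and 11, against 3.42, 3.36, 2.21 and 2.54 in vehicle tumors 6, 8, 9 and 12. Cinacalcet tumor 4 lay inside the vehicle range and the other 3 above it, with a log2 fold change of 1.004 (0.35 standard error, with 0.983 as limma's adjusted p). Mir365-1 was between 1.84 and 2.48 with cinacalcet and between 1.25 and 1.81 with vehicle, a log2 fold change of 0.72 without overlap. Both signals of Mir365-1 are low, since 19 genes that are silent in tumor and stroma averaged 1.18 with cinacalcet and 1.20 with vehicle.

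In the lower direction, none of the 12 genes of smallest p overlapped between the arms, a choice by p that favors such genes (2.87% of all probe sets kept). The left-out cinacalcet tumor 6 stood above every host-rich vehicle tumor for Hmox1 (9.63) and 1700017B05Rik (3.98). It stood inside their range for Prrx2 (2.99) and Gm5781 (2.65), and below it for the others of the 12. Ly96, on chromosome 1, encodes MD-2, the partner through which TLR4 binds bacterial lipopolysaccharide. Its signal was 3.57, 3.31, 3.33 and 3.24 in cinacalcet tumors 4, 7, 10 and 11, against 4.56, 4.09, 4.46 and 4.10 in vehicle tumors 6, 8, 9 and 12. The log2 fold change was -0.94 (standard error 0.21, 95% interval -1.41 to -0.46, adjusted p = 0.983 from limma). Hmox1, on chromosome 8, encodes heme oxygenase, which degrades heme and is abundant in macrophages that take up red cells. Its signal was 8.13, 7.68, 8.14 and 7.22 in cinacalcet tumors 4, 7, 10 and 11, against 8.85, 8.69, 8.73 and 8.88 in vehicle tumors 6, 8, 9 and 12. The vehicle tumors were close together and the cinacalcet tumors spread over nearly 1 unit below them, with a log2 fold change of -0.997 (0.25 standard error, with 0.983 as limma's adjusted p). Of the macrophage pair of the score, Cd68 averaged 7.30 with cinacalcet and 7.76 with vehicle, a difference of -0.46, whereas Csf1r averaged 6.38 with cinacalcet and 6.41 with vehicle, a difference of -0.03. Their part in these values was not tested.

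Hid1, a protein of secretory granule formation, had the smallest p of all named genes. Its signal was 1.89, 1.76, 1.96 and 2.20 in cinacalcet tumors 4, 7, 10 and 11, against 3.09, 2.99, 2.76 and 2.69 in vehicle tumors 6, 8, 9 and 12. The log2 fold change was -0.93 (standard error 0.21, adjusted p = 0.983 from limma). The cinacalcet signals of Hid1 were low, since the array medians of those tumors were 1.59 to 1.66. Gsto1, a glutathione transferase of the omega class, was between 4.74 and 4.94 with cinacalcet and between 5.25 and 5.62 with vehicle, a log2 fold change of -0.64. Kdelr3, a receptor that returns proteins to the endoplasmic reticulum, was between 3.94 and 4.39 with cinacalcet and between 4.67 and 5.09 with vehicle, a log2 fold change of -0.71. Rnf166, a ubiquitin ligase, had a log2 fold change of -0.64. The remaining lower genes include I830077J02Rik at -0.86, Gm5781 at -0.77 and 1700017B05Rik at -0.69.

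Prrx2, a homeobox factor of mesenchymal cells, was 2.19, 2.16, 1.97 and 1.87 in cinacalcet tumors 4, 7, 10 and 11, against 2.88, 2.75, 2.31 and 3.23 in vehicle tumors 6, 8, 9 and 12, a log2 fold change of -0.75. Fzd2, a Wnt receptor, was between 1.31 and 1.56 with cinacalcet and between 1.75 and 2.84 with vehicle, a log2 fold change of -0.81, so that its cinacalcet values lay near those of silent genes. Both had an adjusted p of 0.983 from limma. Cd79b, a chain of the B cell receptor complex, was 3.31, 3.27, 2.76 and 3.68 in cinacalcet tumors 4, 7, 10 and 11, against 3.83, 3.92, 4.98 and 4.13 in vehicle tumors 6, 8, 9 and 12. Its log2 fold change of -0.96 was -0.71 without vehicle tumor 9, in which other B cell genes were high as well.

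**Figure D2:**
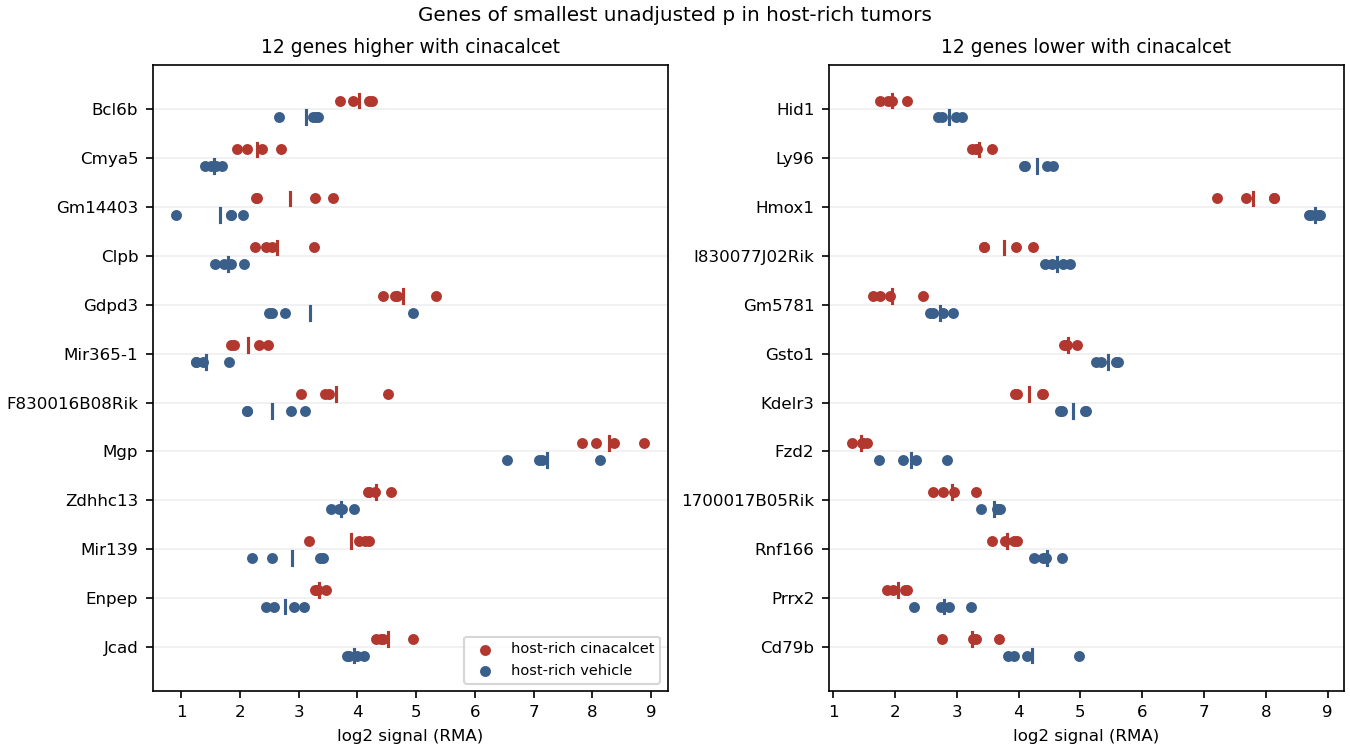
Log2 signal (RMA) of the 12 genes of smallest unadjusted p in each direction, one point per host-rich tumor, cinacalcet above vehicle in each row, with a bar at each arm's mean. All 12 lower genes are without overlap between the arms, whereas Gdpd3, Mgp, Mir139 and F830016B08Rik overlap among the higher ones, and none passed adjustment.

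Lists of genes for cell types and pathways were described by their counts and medians over all probe sets, with one probe set per gene. Over 22169 genes, 1.58% were higher and 2.11% lower with cinacalcet at an unadjusted p under 0.05, and the median log2 fold change was 0.0007. No gene of any list passed adjustment over all probe sets in limma. Of 20 macrophage genes, 17 had lower and 3 higher means with cinacalcet, with a median of -0.15. The list means overlapped, at 5.42 to 6.22 with cinacalcet and 5.68 to 6.06 with vehicle, and cinacalcet tumor 4 was the highest. Trem2, a lipid receptor of tissue macrophages, was 3.75, 3.10, 3.69 and 2.47 in cinacalcet tumors 4, 7, 10 and 11, against 4.45, 4.00, 3.60 and 4.48 in vehicle tumors 6, 8, 9 and 12, a log2 fold change of -0.88. Fcer1g, the signaling chain of Fc receptors, had one of -0.71, and these were the 2 of 20 lower at an unadjusted p under 0.05. Of 14 neutrophil genes, 12 had lower means (median -0.15), and of 26 chemokines and cytokines 21 did (median -0.09). The neutrophil list means overlapped too, at 1.76 to 2.11 with cinacalcet and 1.91 to 2.45 with vehicle. Those of chemokines and cytokines were 3.39 to 4.51 and 3.57 to 4.39, with cinacalcet tumor 4 again the highest. The one chemokine at an unadjusted p under 0.05 was higher: Cx3cl1, the membrane-bound ligand of the monocyte receptor CX3CR1, was between 3.57 and 4.09 with cinacalcet and between 3.24 and 3.56 with vehicle.

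Of 23 fibroblast genes, 18 had lower means with cinacalcet (median -0.26), and 2 were lower at an unadjusted p under 0.05. Thy1, a surface protein of fibroblasts, was between 5.16 and 5.56 with cinacalcet and between 5.60 and 6.03 with vehicle. Postn, a matrix protein secreted by activated fibroblasts, was between 7.43 and 8.03 with cinacalcet and between 8.06 and 8.40 with vehicle. Cinacalcet tumor 11 had the lowest mean of the list, 5.23 against 5.91 to 5.97 in the other 3, and without it the median was -0.10. Collagens and basement membrane genes were split, with 14 of 23 higher and a median of 0.11. Among Wnt antagonists and mesenchymal factors, 3 of 20 were lower at an unadjusted p under 0.05 (median 0.01): Prrx2, Dact2, an inhibitor of Wnt and nodal signaling, at -0.32, and Sfrp2, a secreted Wnt antagonist. The signal of Sfrp2 was 4.30, 4.40, 5.37 and 3.24 in cinacalcet tumors 4, 7, 10 and 11, against 5.87, 4.76, 5.59 and 5.52 in vehicle tumors 6, 8, 9 and 12, a log2 fold change of -1.10.

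Mural genes had higher means with cinacalcet for 12 of 15 (median 0.26), none of them at an unadjusted p under 0.05. The list mean was 4.57, 5.08, 4.88 and 4.70 in cinacalcet tumors 4, 7, 10 and 11. In vehicle tumors 6, 8, 9 and 12 it was 5.09, 4.77, 4.26 and 4.48. The arms overlapped, with vehicle tumor 6 the highest of all and vehicle tumor 9 the lowest. Endothelial genes were split, 13 of 22 with higher means (median 0.07). Cyyr1, the only one of them at an unadjusted p under 0.05, was between 3.39 and 4.00 with cinacalcet and between 3.05 and 3.25 with vehicle. Cell cycle genes had a median of -0.03 with 3 of 23 lower at an unadjusted p under 0.05, Birc5, Ccna2 and Ccnb2, which act in mitosis. Ccna2, cyclin A2, was between 3.85 and 4.45 with cinacalcet and between 4.46 and 5.22 with vehicle. In cholesterol synthesis the genes went both ways (median 0.05). Msmo1, a sterol oxidase, was between 3.25 and 4.51 with cinacalcet and between 2.94 and 3.19 with vehicle, Hmgcs1, the HMG-CoA synthase, had a log2 fold change of 0.74, and Fdft1, squalene synthase, one of -0.48.

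Casr, the host gene for the receptor that cinacalcet activates, was near the level of silent genes. Its signal was 1.34, 1.23, 1.53 and 1.38 in cinacalcet tumors 4, 7, 10 and 11, against 1.46, 1.89, 1.13 and 1.46 in vehicle tumors 6, 8, 9 and 12, and the arms overlapped (log2 fold change -0.11, adjusted p = 0.985 from limma). Of 20 genes of calcium sensing and calciotropic hormones, only Pth1r, the parathyroid hormone receptor, was at an unadjusted p under 0.05, with a log2 fold change of 0.38. The list as a whole was split 10 to 10 with a median of -0.01. Housekeeping genes had a median of -0.04, and genes of endoplasmic reticulum chaperones one of 0.07.

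**Figure D3:**
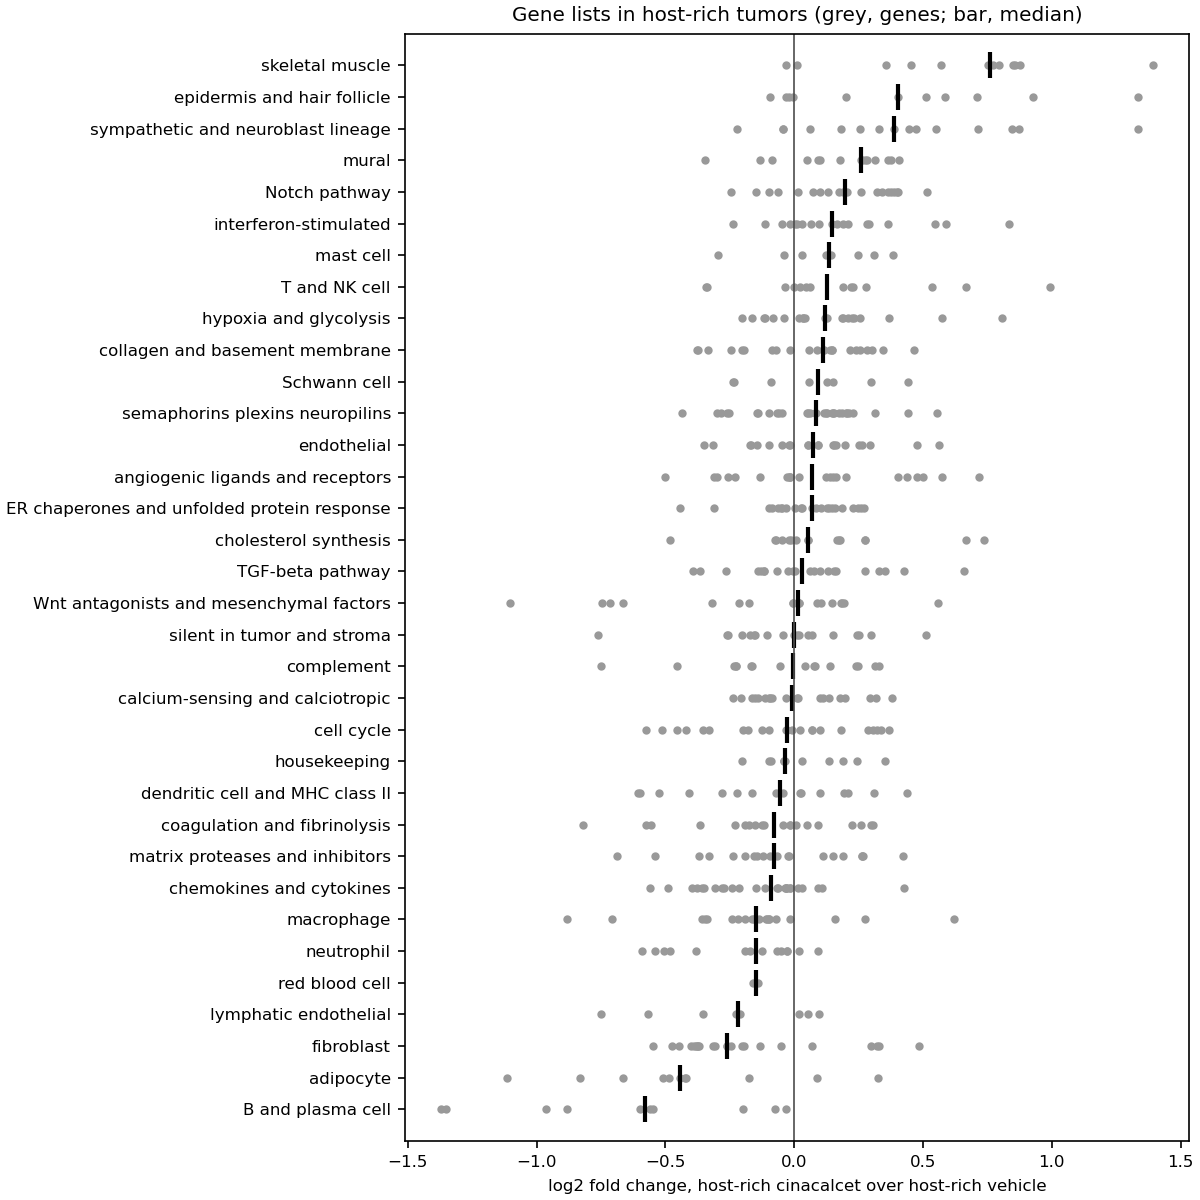
Log2 fold change of host-rich cinacalcet over host-rich vehicle tumors for each gene of 34 lists (grey points), with a bar at the list's median. Skeletal muscle has the highest median, 0.76, and B and plasma cells the lowest, -0.58, and both rest in large part on 1 or 2 tumors.

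The lists with the widest medians were those in which 1 or 2 tumors stood apart. Skeletal muscle genes had higher means with cinacalcet for 11 of 12 (median 0.76), but the list averaged 1.91, 3.30, 2.57 and 1.83 in cinacalcet tumors 4, 7, 10 and 11, against 1.73, 1.78, 1.68 and 1.86 in vehicle tumors 6, 8, 9 and 12. Cinacalcet tumors 7 and 10 were high and the other 2 were near the vehicle tumors. Acta1, skeletal actin, showed the same at 2.96, 6.35, 5.13 and 3.13 with cinacalcet and 2.48 to 3.23 with vehicle. Without cinacalcet tumor 7 the median was 0.37. Keratins and other genes of epidermis and hair follicle (median 0.40) were high in cinacalcet tumor 7 only, where Krt10 stood at 6.52 against 0.77 to 1.55 in the other 3 cinacalcet tumors and 1.04 to 1.23 with vehicle. Without that tumor the median was -0.0027. Sympathetic genes (median 0.39) were high in cinacalcet tumor 10 only, where Th, tyrosine hydroxylase, stood at 6.57 against 1.15 to 1.53 in the other 3 and 1.13 to 1.67 with vehicle. Without it the median was 0.05. LA-N-1 is itself of this lineage, and the part of human transcripts in these signals was not tested.

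In the vehicle arm, tumor 9 stood apart. All 10 genes of B and plasma cells had lower means with cinacalcet (median -0.58). Ms4a1, the B cell antigen CD20, was 0.94, 1.16, 1.01 and 1.55 in cinacalcet tumors 4, 7, 10 and 11, against 1.11, 0.96, 5.84 and 2.16 in vehicle tumors 6, 8, 9 and 12. The high value is that of tumor 9, without which the median of the list was -0.24. Adipocyte genes (median -0.44) turned to 0.02 and lymphatic endothelial genes (median -0.22) to 0.13 without that tumor. Its list means were 4.97 for adipocytes, 4.00 for lymphatic endothelium and 4.77 for B and plasma cells, against at most 3.24, 2.50 and 3.84 in the other 3 vehicle tumors. Interferon-stimulated genes varied widely among cinacalcet tumors, with list means of 2.74 to 5.02 against 3.33 to 3.88 with vehicle, and 15 of 19 had higher means with cinacalcet at a median of 0.15.

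The list of the Notch pathway was the only 1 of 34 whose list means did not overlap between the arms. This share is near the 2.87% of single probe sets without overlap, so it does not set the list apart, and its values are given as a description. They were 3.70, 3.76, 3.81 and 3.68 in cinacalcet tumors 4, 7, 10 and 11, against 3.61, 3.65, 3.43 and 3.52 in vehicle tumors 6, 8, 9 and 12. Of 20 genes, 16 had higher means with cinacalcet and the median was 0.20. Jag1, a member of the list, was picked by the study on these arrays, so the list is not independent of the data. Where the score was taken without its endothelial or without its mural markers, cinacalcet tumor 9 replaced tumor 11 and the median was 0.10. Hey1, a target of Notch in endothelium, was 3.34, 3.31, 3.53 and 3.21 in cinacalcet tumors 4, 7, 10 and 11, against 2.98, 2.98, 2.96 and 3.10 in vehicle tumors 6, 8, 9 and 12. It was the only one of the 20 at an unadjusted p under 0.05 (log2 fold change 0.34, adjusted p = 0.985 from limma). Dll4, the Notch ligand of sprouting tip cells, had a log2 fold change of 0.40, and Notch4, an endothelial receptor, one of 0.38. Heyl and Notch3, which are prominent in mural cells, had 0.36 and 0.26.

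Jag1, which presents the Notch signal to neighboring cells, was 4.59, 5.12, 5.11 and 4.42 in cinacalcet tumors 4, 7, 10 and 11, against 4.60, 4.54, 3.81 and 4.23 in vehicle tumors 6, 8, 9 and 12. The arms overlapped, with 2 of 4 cinacalcet tumors above every vehicle tumor and a log2 fold change of 0.51 (0.27 standard error, with 0.983 as limma's adjusted p; exact permutation test, p = 0.143). In the other tumors the same difference was 1.16, with means of 4.28 for cinacalcet and 3.12 for vehicle. The mean host score also lay higher with cinacalcet there (above), and its part in that difference was not tested. The difference between the 2 fold changes was -0.64 (standard error 0.47, adjusted p = 0.706 from limma). Nrp2, the neuropilin that binds semaphorins and VEGF, was 6.63, 5.77, 6.27 and 5.50 in cinacalcet tumors 4, 7, 10 and 11, against 5.86, 5.72, 5.61 and 5.73 in vehicle tumors 6, 8, 9 and 12. Its log2 fold change was 0.31 (standard error 0.27), and 0.12 without cinacalcet tumor 4. In the other tumors it was 1.13, where cinacalcet tumor 9 stood at 7.22.

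Sema5b is a semaphorin anchored in the membrane. The filter dropped it, and it was read from the fit over all probe sets. It was 3.13, 3.28, 3.02 and 3.44 in cinacalcet tumors 4, 7, 10 and 11, against 3.51, 4.07, 3.55 and 3.49 in vehicle tumors 6, 8, 9 and 12. The arms did not overlap, though cinacalcet tumor 11 lay close below vehicle tumor 12, and the log2 fold change was -0.44 (standard error 0.17, adjusted p = 0.985 from limma; exact permutation test, p = 0.0286). In the other tumors it was -0.55. The study named this gene, like Jag1 and Nrp2, from these tumors. Of 31 semaphorins, plexins and neuropilins, 20 had higher means with cinacalcet (median 0.09), and those at an unadjusted p under 0.05 were Sema5b and Plxnb1, a receptor of class 4 semaphorins, at -0.30.

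The angiopoietins are ligands of the endothelial receptor Tie2. Angpt2, of sprouting vessels, had a log2 fold change of -0.01 with an interval of -0.71 to 0.68. Angpt1, of mural cells, was between 1.15 and 1.40 with cinacalcet and between 1.22 and 1.89 with vehicle, all near the level of silent genes. In the other tumors it was 1.70, 2.14 and 2.16 in cinacalcet tumors 5, 8 and 9, against 0.92 to 1.61 with vehicle, and the difference of the fold changes was -1.08 (adjusted p = 0.795 from limma). The receptor Tie1 had a log2 fold change of 0.47, which was 0.09 without cinacalcet tumor 7, where it stood at 5.06. Kdr, the main VEGF receptor, had 0.15, Pdgfra, a receptor of fibroblasts, -0.32, Mmp9, a gelatinase of neutrophils and macrophages, -0.54, and Tgfb1, a growth factor that promotes matrix deposition, -0.14. Each of these 4 overlapped between the arms. Of 22 angiogenic ligands and receptors, 12 had higher means with cinacalcet (median 0.07), and Pdgfa, which recruits fibroblasts and mural cells, was the one at an unadjusted p under 0.05, at 0.44. Of 22 genes of the TGF-beta pathway none was, with a median of 0.03.

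**Figure D4:**
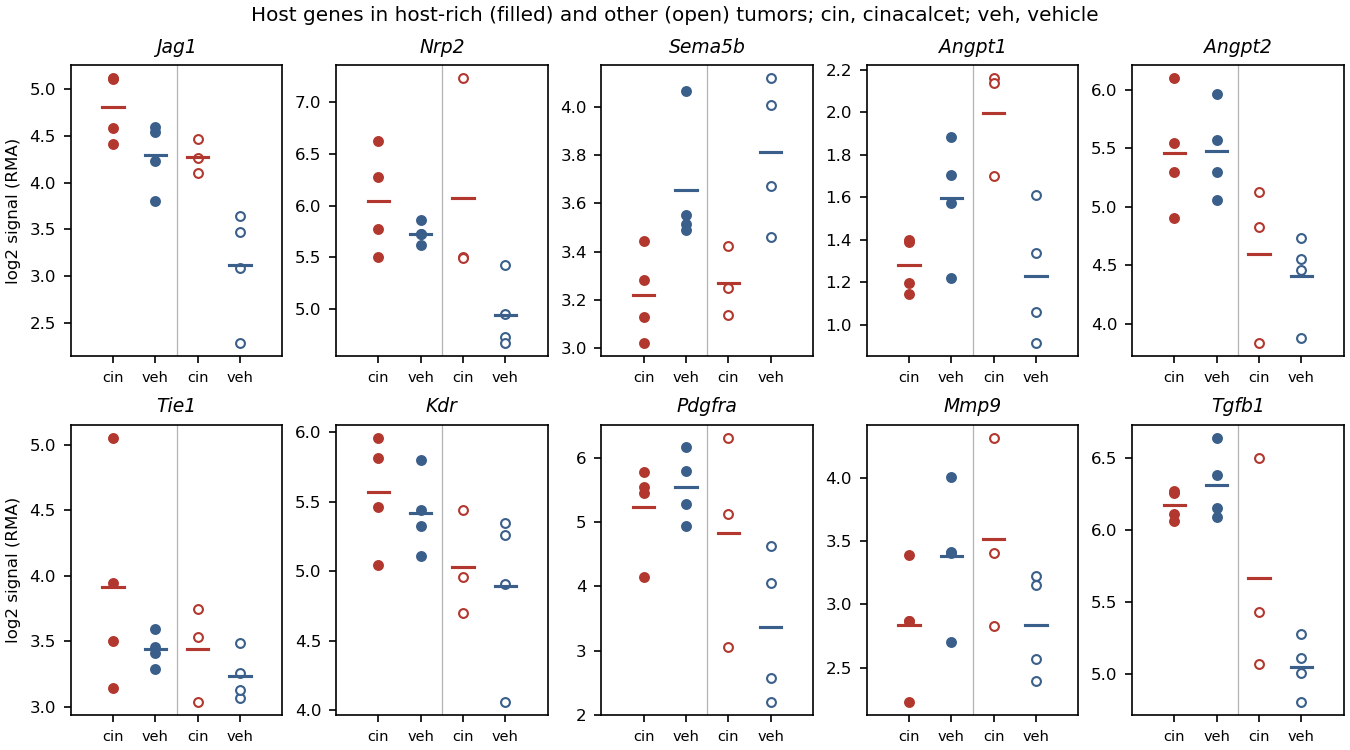
Log2 signal (RMA) of 10 genes that the study discusses, one point per tumor with a bar at the mean: host-rich cinacalcet and vehicle tumors filled at the left of each panel, the other cinacalcet and vehicle tumors open at the right. Each panel has its own scale, which does not start at 0. Jag1 and Nrp2 differ by 0.51 and 0.31 among the host-rich tumors, and by 1.16 and 1.13 among the others.

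Whether the difference between the arms was the same in the host-rich and the other tumors was tested as an interaction over the 15 tumors. Before adjustment, 99 of 10123 probe sets (0.978%) had an interaction p of 0.01 or less in limma, 40 with the higher and 59 with the lower effect in host-rich tumors. After adjustment 0 passed, the smallest adjusted p being 0.383, and 620 had an unadjusted p under 0.05. The median log2 fold change was -0.02 among host-rich tumors and 0.17 among the others. In the others the host score was 6.50 to 7.60 with cinacalcet and 5.56 to 7.21 with vehicle. The part of the score in these medians was not tested. Of the 71 probe sets listed among host-rich tumors, 32 (45.1%) had the same direction in the other tumors, against 46.5% of all probe sets kept. By direction it was 60.6% of the 33 higher ones against 57.1% of all higher ones, and 31.6% of the 38 lower ones against 36.7% of all lower ones. Direction was therefore shared about as often as for any probe set.

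Hid1 had the smallest interaction p of the lower genes. It was 2.64, 3.02 and 2.31 in the other cinacalcet tumors 5, 8 and 9, against 2.09, 2.10, 1.99 and 2.40 in the other vehicle tumors 5, 7, 10 and 11, the opposite direction to the host-rich tumors (difference of the fold changes -1.44, standard error 0.36, adjusted p = 0.618 from limma). Mir139 also had opposite directions, with means of 3.55 for cinacalcet and 4.55 for vehicle in the other tumors and a difference of 2.01 (standard error 0.54, adjusted p = 0.704 from limma). Gclm, the modifier subunit of the ligase that makes the precursor of glutathione, was between 4.23 and 4.74 in host-rich cinacalcet tumors and between 4.80 and 5.44 in host-rich vehicle tumors, against 4.25 to 5.06 and 3.66 to 4.20 in the other tumors, a difference of -1.31. Stip1, a co-chaperone of HSP90, had a difference of -1.38, and Clec4n, the fungal receptor Dectin-2 of myeloid cells, one of -2.22. In the other direction were Morc4 at 1.52, the vomeronasal receptor gene Vmn1r2 at 1.59, Mir466h at 1.65 and the lactate transporter Slc16a8 at 1.28. Mir1938 had -1.28, with nearly equal means among host-rich tumors, 1.87 with cinacalcet and 1.86 with vehicle. All of these had an adjusted p of 0.618 or 0.704 from limma.

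**Figure D5:**
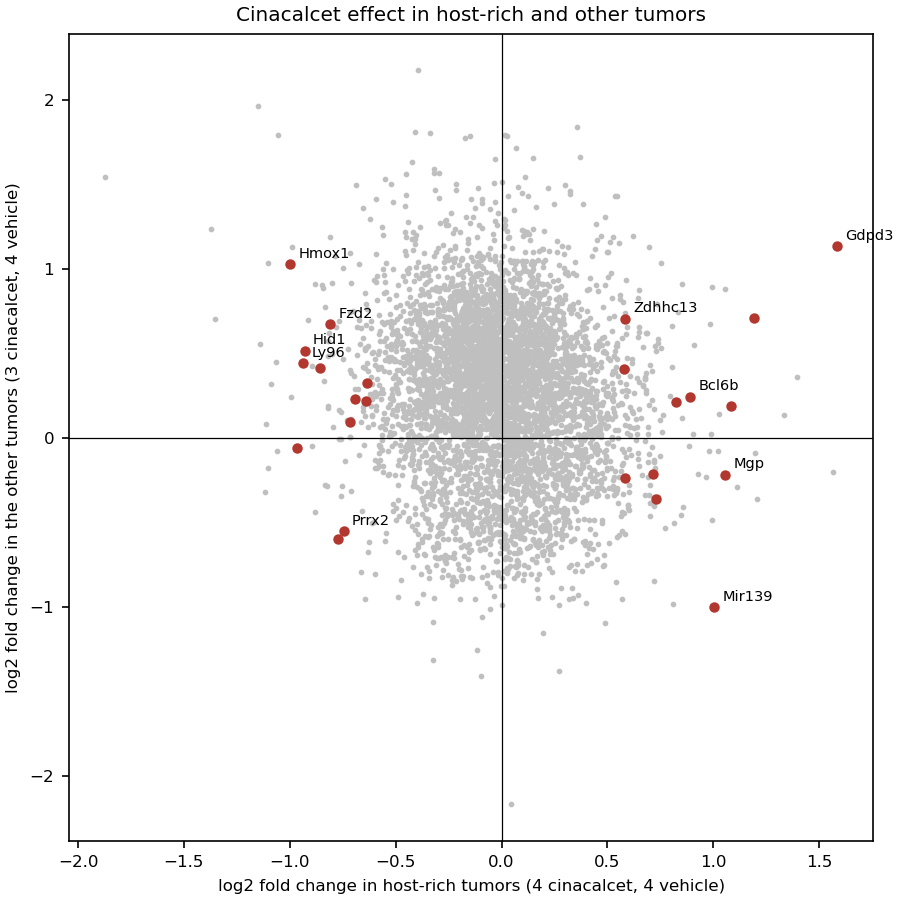
Log2 fold change of cinacalcet over vehicle in host-rich tumors (horizontal, 4 against 4) and in the other tumors (vertical, 3 against 4). Each point is a gene, drawn from a probe set that passed the filter and names that gene alone. Probe sets that are unnamed or name several genes are not drawn. Red points are the 24 genes of smallest p among host-rich tumors, 10 of them labelled. Most of the lower genes, among them Hmox1, Ly96 and Hid1, lie above 0 on the vertical axis.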

How the data were processed

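RNA of 16 xenografts was hybridized to one-color Affymetrix Mouse Gene 2.1 ST arrays. The values the authors deposited are log2 signals from Robust Multi-array Average (RMA), and limma 3.24 and R 3.2 are in the submitters' processing notes. The genome build of the probes was not given in the sources used here. Of 40543 probe sets, 23448 name 1 gene, 1619 several and 15476 none in the annotation used, and 23255 were matched to RefSeq (GRCm38.p6).

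The tumors and lists were chosen with earlier results of these data known. The host score used, for each gene, the single-gene probe set of highest mean. The 12 probe sets of score genes were left out of the tests. Following the methods, the 50% of probe sets of lowest mean and the 50% of the rest of lowest SD over 15 tumors were removed. The 8 host-rich tumors were fitted with limma 3.58.1 (lmFit and eBayes, R 4.3.3) with Benjamini-Hochberg adjustment. A fit of 4 groups over 15 tumors gave the interaction. Genes outside the filter and all lists came from the fit without it. Exact permutation tests were two-sided over 70 arrangements. Named genes were the 12 of smallest p in each direction, the 8 largest changes without overlap, 5 interactions in each direction, 10 genes of the study, and up to 4 list members of smallest p. Cd79b, Prrx2 and others fall under more than 1 part of that rule, and Casr, Acta1, Th and Notch4 were named after their values were seen. The test was checked on simulated data. Whether gavage was daily (labels) or 6 days a week (methods) differs between sources. Each array is 1 tumor of 1 mouse as far as the sources say, and the number of tumors limits the precision.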

Additional observations from a re-analysis of the deposited data

Results flagged for a closer look

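In groups of 4 tumors, a value was singled out where its gap to the nearest other tumor took up most of the group's range. Of 154 groups of named genes and list means examined, 11 had such a value, and chance gives about 5%. Vehicle tumor 9 had 5 of them. It was high for Gdpd3 at 4.943, for the mean of lymphatic endothelial genes at 4.005 and for that of mast cell genes at 2.447, and low for Bcl6b at 2.661 and 1700017B05Rik at 3.4. Without it the log2 fold changes were 2.17 for Gdpd3, 0.73 for Bcl6b and -0.76 for 1700017B05Rik, each in the direction of all 8 tumors.

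The other values belong to 5 tumors. Cinacalcet tumor 7 was high for the mean of epidermis and hair follicle genes at 3.133 and for Mir1938 at 2.204. Cinacalcet tumor 10 was high for the mean of sympathetic and neuroblast genes at 3.694. Cinacalcet tumor 11 was low for the mean of fibroblast genes at 5.23, cinacalcet tumor 4 was low for Mir139 at 3.176, and vehicle tumor 8 was high for Sema5b at 4.066. Without vehicle tumor 8 the log2 fold change of Sema5b was -0.30.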

How the results depend on the processing

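Over 30 alternatives, no named gene passed adjustment in limma (smallest adjusted p 0.339), and 1250 of 1290 gene values kept their direction. Alternative scores that chose the same 8 tumors (below) repeated the main fit, so their values could not change. Many named genes were also picked by p in these same tumors, which favors a kept direction. The count of 71 of 10123 before adjustment (p of 0.01 or less) was 344 of 40531 without the filter, where 1% would be 405.3. It was 178 of 20259 with the signal filter alone and 24 of 5281 over probe sets of 1 gene. Of the same 10123 it was 39 in the fit of 4 groups and 64 to 80 without 1 tumor. The count past adjustment was 0 to 1 without 1 tumor. The 1, without vehicle tumor 6, was unnamed probe set 17538755 (log2 fold change 4.06, adjusted p 0.0350 from limma, against 0.983 with all 8). The 99 of the interaction became 466, 256 and 39 under the same 3 filters, of the same 40531, 20259 and 5281 probe sets. The interaction count was 39 with the 3 highest tumors of each arm and 60 without the 2 longest-treated cinacalcet tumors (chosen after seeing the data). Without 1 tumor it was 74 to 109, with 0 to 0 past adjustment. The cause was not tested, apart from the number of probe sets under each filter. Scaled or class-averaged scores and scores without fibroblast or macrophage markers chose the same tumors, whereas without endothelial or mural markers cinacalcet tumor 9 replaced 11, with 51 higher and 29 lower.

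Outside the replicate block, the sign changed for Angpt2, Pdgfra, Kdr, Tgfb1 and Angpt1. Angpt2 was -0.23 to 0.17 without 1 tumor, 0.0064 after quantile normalization, 0.10 with 5 tumors of each arm, 0.0085 with the score as a covariate and 0.35 without the 2 longest-treated tumors. Pdgfra was -0.52 to 0.0456 without 1 tumor, 0.25 with cinacalcet tumor 6 included, 0.20 with 5 tumors of each arm, 0.23 with the score lacking endothelial or mural markers, 0.18 in all 15 tumors with the score as a covariate and 0.0686 without the 2 longest-treated. Kdr was -0.0317 with 3 tumors of each arm and -0.0613 with the score lacking endothelial or mural markers. Tgfb1 was 0.13 with 5 tumors and 0.0670 in all 15 with the covariate, where Angpt1 was 0.17.

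The host-rich arms share 0 tumor numbers, and 6 pairs among the 15 tumors had deviations correlated at 0.0183 to 0.187, so numbers were not taken as pairs. A replicate block by number could be fitted only over all 15, through pairs that mostly cross host-rich and other tumors. Cinacalcet tumor 4 and vehicle tumors 6 and 12 share their number with no other tumor, so they added nothing to the block's fold changes. The pair numbered 5, in which neither tumor is host-rich, entered every one of them. Those values are thus not a comparison of the host-rich tumors alone. The block listed 99 probe sets for the main comparison and 126 for the interaction, 0 after adjustment. Under that block the sign turned for Cmya5 (-0.59), Mir365-1 (-0.33), Mgp (-0.79), Zdhhc13 (-0.65), Enpep (-0.58), Jag1 (-0.69), Hmox1 (0.17), Fzd2 (0.94), 1700017B05Rik (0.28), Rnf166 (0.34), Sema5b (0.0446), Angpt1 (0.28), Angpt2 (1.33), Pdgfra (0.61), Mmp9 (1.32) and Tgfb1 (0.38), and for the interactions of Mir466h (-1.82), Stip1 (0.0736) and Gclm (0.0316). These include Mgp, Hmox1 and Fzd2, whose log2 fold changes without the block were 1.06, -0.997 and -0.81.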

Other observations

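Hmox1, Gsto1 and Gclm, which lay lower in host-rich cinacalcet tumors than in host-rich vehicle tumors, are known targets of the antioxidant response, in which the factor NRF2 acts on detoxifying enzymes. A list of 23 such genes was written after these values were seen, so it is described without a test. Of the 20 measured, 16 had lower means with cinacalcet and 4 higher, and the median log2 fold change was -0.19. Those at an unadjusted p under 0.05 were Hmox1, Gsto1, Gclm and Cat, catalase, at -0.59, and the first 3 did not overlap between the arms. Those 3 prompted the list and are within its counts, so they lend it no support. Over all genes 2.11% were lower at that p, and 2.87% of the probe sets kept did not overlap. Slc7a11, the cystine transporter, lay higher at 0.30, and Nqo1, a quinone reductase that is among the best known targets, had -0.15. In the other tumors, where the mean host score was higher with cinacalcet, the median of the same list was 0.35. The part of the score in that median was not tested. The list mean was 4.15, 4.22, 3.95 and 3.79 in cinacalcet tumors 4, 7, 10 and 11, against 4.24, 4.21, 4.35 and 4.26 in vehicle tumors 6, 8, 9 and 12, so cinacalcet tumor 7 overlapped the vehicle tumors.

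The antioxidant response element was looked for as TGACNNNGC and its reverse complement in the 250 bases before the start of each gene. The window of Gclm (RefSeq, GRCm38.p6, chr3:122245307-122245556, plus strand) holds 1 match on the reverse strand, in capitals, and is shown because Gclm had both a lower host-rich signal and an interaction among the smallest p.
Gclm: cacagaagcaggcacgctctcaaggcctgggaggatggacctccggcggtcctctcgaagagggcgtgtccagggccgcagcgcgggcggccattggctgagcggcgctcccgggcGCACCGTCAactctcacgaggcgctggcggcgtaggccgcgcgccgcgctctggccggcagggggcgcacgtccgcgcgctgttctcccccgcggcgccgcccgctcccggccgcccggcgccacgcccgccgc
A match was present in 3338 of 32851 such windows (10.2%) and in 5 of the 19 list genes that have one. The list was written from known targets of this response, so its share of matches cannot bear on these tumors. The letters are a description of the window and not of a bound site.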
